A study of Mus musculus with 32 samples.

Results

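The genes described here are Bdnf, Ntf3, Ntrk2, Vgf, Scg2, Pcsk1, Nptx2 and Inhba, a set of neurotrophins, a neurotrophin receptor and secreted factors of neurons, measured by bulk RNA sequencing of the mouse hippocampus. They were taken by gene name from the deposited tables of raw counts and FPKM (fragment counts scaled by gene length and library depth), where they are 8 of 54532 genes. All 8 were among the 16723 genes that passed a filter on low counts. The 32 mice were 12 months old and fell into 4 groups of 8, each with 4 females and 4 males. 5xFAD/D-45113 and 5xFAD/Veh mice carried the 5xFAD transgenes, which carry familial Alzheimer's disease mutations and are expressed under Thy1 regulatory sequences. WT/D-45113 and WT/Veh mice were wild-type C57BL/6J animals without these transgenes. D-45113 is a hydroxyl dendrimer, a branched polymer used as a carrier, joined to an inhibitor of the kinase CSF1R on which microglia depend. It was injected intraperitoneally over the month before the tissue was taken, and Veh mice received the hydroxyl dendrimer without the inhibitor. Thy1, whose regulatory sequences the transgenes carry, lay above its level in every WT mouse in 14 of 16 5xFAD mice. It did not in the libraries labelled 5xFAD/D-45113 1M (423 CPM, counts scaled to library size) and 4F (523 CPM). The highest WT level was 529 CPM. A reactive astrocyte marker score (mean centred log2 CPM of 5 genes) was higher in every 5xFAD mouse, 1M and 4F included, than in any WT mouse. Its lowest was 0.393 in 5xFAD/D-45113 and 0.879 in 5xFAD/Veh mice. Its highest was -0.426 in WT/D-45113 and -0.735 in WT/Veh mice. The genotype of 1M and 4F was not tested in another way. Calls of the 8 genes and of the other genes named are also given without these libraries. Total counts per library ran between 10707410 and 30368498. On mm10, as the tables give it, Bdnf lies at chr2:109674700-109727007 and Ntf3 at chr6:126101412-126166910, Ntrk2 at chr13:58806569-59133970, Vgf at chr5:137026392-137033351, Scg2 at chr1:79434669-79440120, Pcsk1 at chr13:75089826-75134861, Nptx2 at chr5:144545902-144557478 and Inhba at chr13:16011851-16031621. All are protein-coding, with Scg2 and Ntf3 on the minus strand and the others on the plus strand.

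Neurotrophins are secreted growth factors that act on receptor tyrosine kinases of the Trk family. Bdnf encodes brain-derived neurotrophic factor and Ntf3 encodes neurotrophin-3, and Ntrk2 encodes TrkB, the receptor of brain-derived neurotrophic factor, which neurons make in a full-length form and astrocytes largely in a form without the kinase. Synaptic activity raises the transcription of Bdnf, Vgf, Scg2, Nptx2, Inhba and Pcsk1 in neurons, and granule cells of the dentate gyrus are the main place of Ntf3 expression in the adult hippocampus. Vgf and Scg2 encode proteins of the granin family that are stored in dense-core vesicles and cut into peptides, and Pcsk1 encodes a prohormone convertase that makes such cuts. Nptx2 encodes a neuronal pentraxin that gathers AMPA receptors at synapses onto interneurons, and Inhba encodes the subunit of which activin A is a dimer.

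Transcription of activity-regulated genes often runs through the cAMP response element (CRE), the palindrome TGACGTCA, and its shorter core TGACG. RefSeq promoters on GRCm38.p6, each from 250 bases before to 50 bases after a start site, were searched on both strands for these letters, as well as for the AP-1 motif TGANTCA and the EGR motif GCGNGGGCG. Entries were matched by symbol for 6 of the 8 genes, and Vgf and Nptx2 are named only. The CRE was found in the single entry of Scg2 and in that of Pcsk1, against 1.79% of 32851 promoters in the same table. The core, which every CRE also contains, stood in 1 of 7 entries of Bdnf, against 20.8% of all promoters, and the AP-1 motif in another of them, against 7.81%. Neither entry of Ntf3, and not those of Inhba and Ntrk2, held any of these letters, and the EGR motif (5.55% of promoters) was in none of the entries of these 6 genes. The windows around the CRE and core letters found in Pcsk1, Bdnf and Scg2 are shown 5′ to 3′, with the matches in capitals. They are matches of letters only, and neither binding nor promoter activity was measured. The Pcsk1 window (chr13:75089719-75089825, plus strand) ends 31 bases before the start site, the Bdnf window (chr2:109692341-109692435, plus strand) ends at it, and the Scg2 window (chr1:79440077-79440104, minus strand) is limited to the match and 10 bases on each side because it lies within an annotated exon.
Pcsk1: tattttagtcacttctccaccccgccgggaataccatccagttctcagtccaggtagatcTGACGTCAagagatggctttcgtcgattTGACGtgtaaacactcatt
Bdnf: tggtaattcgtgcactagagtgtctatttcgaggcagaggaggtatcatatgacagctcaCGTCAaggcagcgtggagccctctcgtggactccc
Scg2: gctgagccggTGACGTCAgcgtggaatg

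Among themselves the genes spanned a wide range of levels. On the FPKM scale, which allows for gene length, Vgf had the highest mean over the 32 mice (80.4 ± 29.5 FPKM, SD), followed by Scg2 (64.1 ± 13.5 FPKM) and Ntrk2 (48.8 ± 12.5 FPKM). Nptx2 stood at 17.4 ± 15.7 FPKM, Pcsk1 at 4.62 ± 1.52 FPKM and Bdnf at 3.46 ± 1.94 FPKM. Inhba (1.69 ± 1.54 FPKM) and Ntf3 (1.67 ± 1.43 FPKM) were the lowest. The order of neighbours was steady for Ntrk2 over Nptx2 (31 of 32 mice) and Nptx2 over Pcsk1 (32 of 32 mice). It was less so for Vgf over Scg2 and for Scg2 over Ntrk2 (25 of 32 mice each) and for Pcsk1 over Bdnf (22 of 32 mice). Inhba exceeded Ntf3 in 15 of 32 mice, so that these levels were not ordered beyond their spread. The levels per mouse below are CPM, counts scaled to library size with TMM normalisation, which allow comparison of 1 gene between mice but not of genes with each other.

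**Figure D1:**
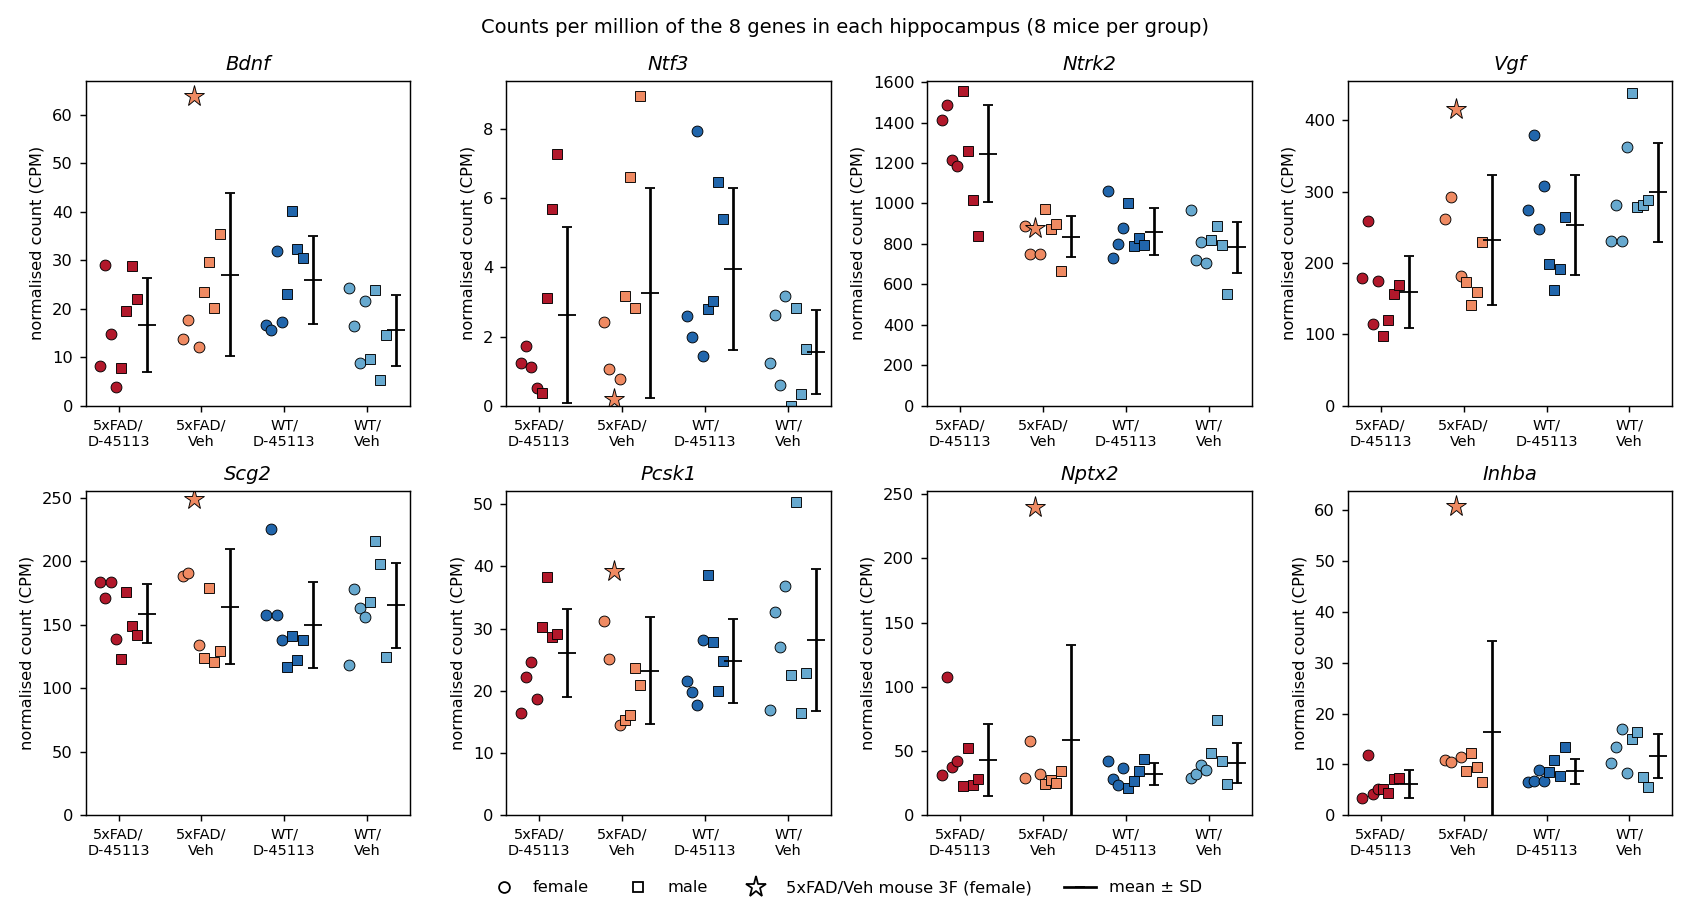
CPM (y axis, linear from 0) of each gene in every mouse, with the groups on the x axis. Circles are females, squares are males, the star is 5xFAD/Veh mouse 3F, and the bars beside the points are the mean ± SD of 8 mice, with bars that would pass below 0 cut there. Ntrk2 of 5xFAD/D-45113 mice lies above all 8 5xFAD/Veh mice in 7 of 8, and the star is the highest of all 32 mice for Bdnf, Nptx2, Inhba and Scg2.

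One mouse has to be set apart before the comparisons. 5xFAD/Veh mouse 3F had the highest level of its group for 6 of the 8 genes and the highest of all 32 mice for Bdnf (63.9 CPM), Nptx2 (240 CPM), Inhba (60.7 CPM) and Scg2 (249 CPM). Its Nptx2 was 8.15 times and its Inhba 5.84 times the median of the other 7 5xFAD/Veh mice. Vgf (416 CPM) and Pcsk1 (39.2 CPM) were each second among all mice. Ntrk2 of the same mouse (877 CPM) was near its group's median, and its Ntf3 (0.209 CPM) was the lowest of the group. The same library had the lowest score of all 32 for dentate granule cell markers (-2.04, the mean centred log2 CPM of 6 genes) and ranked 3 of 32 for immediate early genes (0.57, 25 genes), and 2 of 32 for both interneuron markers (0.60, 7 genes) and reactive astrocyte markers (1.71, 5 genes). Comparisons with 5xFAD/Veh are therefore given with and without it where it bears on them.

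The first question was what D-45113 did to these genes in 5xFAD mice. D-45113 treatment of 5xFAD mice went with higher Ntrk2 and lower Inhba than vehicle, and the other 6 genes did not pass the test. With 2 of 8 genes called, the background is 3.96% of all 16723 genes, called by edgeR's quasi-likelihood test at a Benjamini-Hochberg adjusted p under 0.05. Without the libraries labelled 1M and 4F, 1 of 8 was called and 1.10% of all genes. The median log2 fold change of the 8 genes was -0.37, against 0.01 over all genes tested. It was -0.16 without 5xFAD/Veh mouse 3F and -0.15 without 1M and 4F. Leaving out mouse 3F, 1 of 8 genes was called, and 476 of 16887 over all genes. In bulk tissue, fewer cells of a type and less RNA per cell cannot be told apart, and this holds for each difference below.

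Ntrk2, the TrkB receptor gene, ran between 841 and 1555.1 CPM with a median of 1236.8 CPM in 5xFAD/D-45113 mice, against a lowest of 668, a median of 875 and a highest of 973 CPM in 5xFAD/Veh mice. Of 8 treated mice, 7 exceeded every 5xFAD/Veh mouse, and male 4M (841 CPM) fell within the vehicle range. The log2 fold change was 0.58 (SE 0.117, edgeR adjusted p = 0.00619), and it passed with each of the 16 mice left out in turn (0.53 to 0.64) and without 1M and 4F together (0.53, adjusted p = 0.0321). The call was lost when scores of thalamus and of choroid plexus markers were added as covariates (0.52, adjusted p = 0.176), in males alone (0.45, adjusted p = 0.444) and with an astrocyte marker score as a covariate (0.43, adjusted p = 0.0852). Calls fell over all genes in these fits too, to 9 with the scores of thalamus and choroid plexus, 0 in males and 95 with the astrocyte score, against 662. The count is per gene, so full-length and truncated TrkB transcripts cannot be told apart.

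Inhba, the activin A subunit gene, had a lowest of 3.46, a median of 5.15 and a highest of 11.9 CPM in 5xFAD/D-45113 mice, against a lowest of 6.51, a median of 10.6 and a highest of 60.7 CPM in 5xFAD/Veh mice. Of 8 treated mice, 5 lay below every 5xFAD/Veh mouse and 7 below the vehicle median, and the highest treated mouse was female 2F. The log2 fold change was -1.41 (SE 0.351, edgeR adjusted p = 0.0210). Without 5xFAD/Veh mouse 3F it was -0.71 (adjusted p = 0.0969), so that the call rested on that mouse. Without the highest treated mouse, 2F, it was -1.63 (adjusted p = 0.00938). It passed in 15 of 16 fits with a mouse left out but in 4 of 16 other settings. The call was lost when marker scores entered as covariates: those of thalamus and choroid plexus (-1.29, adjusted p = 0.297), that of astrocytes (-1.37, adjusted p = 0.0989) and that of excitatory neurons (-1.15, adjusted p = 0.132). With limma voom, which weights log counts by their precision, it was -1.07 (adjusted p = 0.0754), and without the libraries labelled 1M and 4F it was -1.34 (adjusted p = 0.0923). The pseudogene B230303A05Rik overlaps Inhba on the opposite strand with 18 to 169 counts per mouse, and the strand setting of the counting is not given in the sources used here, so reads of the pair may not be fully separated. The pseudogene itself, looked up after these values were seen, had a log2 fold change of 0.00 (adjusted p = 0.999).

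Bdnf, the TrkB ligand gene, had a lowest of 3.84, a median of 17.2 and a highest of 29.0 CPM in 5xFAD/D-45113 mice, against a lowest of 12.1, a median of 21.9 and a highest of 63.9 CPM in 5xFAD/Veh mice. Of 8 treated mice, 3 were below the whole vehicle range and the rest overlapped it. Those 3 were 4F (3.84 CPM), 1M (7.71 CPM) and 1F (8.11 CPM), so the libraries 1M and 4F were among them. The log2 fold change of -0.68 (SE 0.366, edgeR adjusted p = 0.305) did not pass, and it was -0.37 without 5xFAD/Veh mouse 3F. For Ntf3, the neurotrophin-3 gene, the groups overlapped almost fully, at 0.367 to 7.26 CPM (median 1.48) in 5xFAD/D-45113 mice and 0.209 to 8.93 CPM (median 2.62) in 5xFAD/Veh mice.

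Vgf, the granin that gives rise to the TLQP peptides, had a lowest of 98.1, a median of 163 and a highest of 259 CPM in 5xFAD/D-45113 mice, against a lowest of 141, a median of 206 and a highest of 416 CPM in 5xFAD/Veh mice. Of 8 treated mice, 7 were below the vehicle median, but the log2 fold change of -0.55 (SE 0.204, edgeR adjusted p = 0.119) missed the threshold. It passed when treated mouse 2F was left out (-0.68, adjusted p = 0.0458), and it was -0.37 without 5xFAD/Veh mouse 3F. The other granin, Scg2, overlapped between the groups, with 123 to 184 CPM (median 160) in 5xFAD/D-45113 mice and 121 to 249 CPM (median 156) in 5xFAD/Veh mice, a log2 fold change of -0.05 (SE 0.148). Pcsk1, whose product cuts granins and other prohormones, ran from 16.5 to 38.3 CPM (median 26.7) in 5xFAD/D-45113 mice and from 14.5 to 39.2 CPM (median 22.3) in 5xFAD/Veh mice, a log2 fold change of 0.16 (SE 0.221).

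Nptx2, the neuronal pentraxin gene, had a lowest of 22.6, a median of 34.4 and a highest of 108 CPM in 5xFAD/D-45113 mice, against a lowest of 24.3, a median of 31.0 and a highest of 240 CPM in 5xFAD/Veh mice. Each group held 1 female far above the rest, 2F among treated and 3F among vehicle mice. The log2 fold change of -0.44 (SE 0.404, edgeR adjusted p = 0.599) had the opposite sign without 5xFAD/Veh mouse 3F (0.39, adjusted p = 0.495) and was -0.79 (adjusted p = 0.262) without treated mouse 2F, so no direction can be given.

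**Figure D2:**
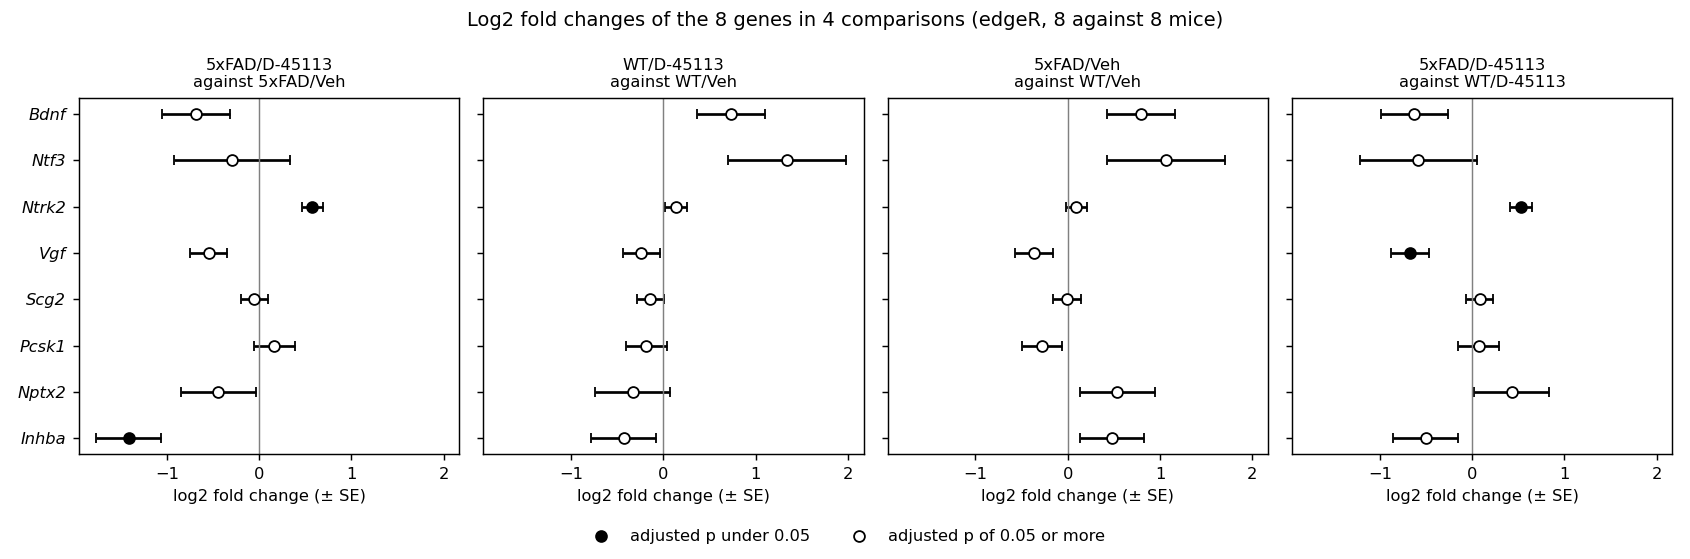
Log2 fold change (x axis) of each gene (y axis) in the 4 pairwise comparisons, with bars of ± 1 SE from edgeR fitted to all 32 mice and filled points where the adjusted p was under 0.05. Ntrk2 is filled at 0.58 and 0.53 in the comparisons of 5xFAD/D-45113 mice with 5xFAD/Veh and with WT/D-45113 mice, Inhba at -1.41 in the first and Vgf at -0.67 in the second of these.

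Marker levels moved along with these results. All 12 thalamus markers and all 12 choroid plexus markers had positive fold changes in 5xFAD/D-45113 against 5xFAD/Veh mice (medians 1.31 and 2.38 on the log2 scale), of which Slc17a6 and Rora of the thalamus list and Otx2 of the choroid plexus list passed the test. Summed thalamus markers ran from 336 to 1691.3 CPM in 5xFAD/D-45113 and from 178 to 480 CPM in 5xFAD/Veh mice. Summed choroid plexus markers ran from 319 to 9115.0 CPM in 5xFAD/D-45113 and from 320 to 1454.5 CPM in 5xFAD/Veh mice. All 8 markers of hippocampal excitatory neurons had negative fold changes (median -0.52), of which Nrgn, the gene of the calmodulin-binding protein neurogranin, passed (-0.86, SE 0.217, edgeR adjusted p = 0.0223). Their summed level was 3890.0 to 9320.3 CPM in 5xFAD/D-45113 and 6226.4 to 10944.0 CPM in 5xFAD/Veh mice. Without 1M and 4F the calls of Slc17a6 (adjusted p = 0.0364) and Otx2 (adjusted p = 0.0496) held, while those of Rora (1.00, adjusted p = 0.182) and Nrgn (-0.68, adjusted p = 0.118) were lost. Rora also missed the threshold without 5xFAD/Veh mouse 3F (adjusted p = 0.0656).

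Microglia, the cells that CSF1R inhibition acts on, had the marker list with the most calls: all 7 had negative fold changes (median -0.52), and 4 of them, including Csf1r (-0.44, adjusted p = 0.0323), passed. None of the 7 passed without 1M and 4F (median -0.41). Summed microglia markers ran from 717 to 1153.8 CPM in 5xFAD/D-45113 and from 1022.2 to 1383.6 CPM in 5xFAD/Veh mice. Of 8 striatum and midbrain markers, 7 had negative fold changes (median -1.0, none called), with sums of 61.5 to 1129.5 CPM in 5xFAD/D-45113 and 294 to 1901.1 CPM in 5xFAD/Veh mice. Their part in the differences of the 8 genes was not tested.

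Astrocytes are the other main site of Ntrk2, and 5 of 7 astrocyte markers had positive fold changes in the same comparison (median 0.31). Gjb6, which encodes the gap junction protein connexin 30, was the 1 that passed (0.81, SE 0.144, edgeR adjusted p = 0.00248), also without 1M and 4F (0.735, adjusted p = 0.0171). Of 5 reactive astrocyte markers 3 had negative fold changes (median -0.36, none called), with sums of 1769.9 to 5148.8 CPM in 5xFAD/D-45113 and 2920.7 to 4232.5 CPM in 5xFAD/Veh mice. Summed astrocyte markers overlapped, at 4621.6 to 7523.3 CPM in 5xFAD/D-45113 and 4907.8 to 7604.6 CPM in 5xFAD/Veh mice. Their score, which weights each marker equally, ran from 0.07 to 0.30 in 5xFAD/D-45113 and from -0.24 to 0.21 in 5xFAD/Veh mice. None of the defining markers of these lists was at 0 in every mouse. Beyond the fits of Ntrk2 and Inhba with marker scores as covariates given above, the part of tissue composition in their differences was not tested.

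Other genes of the pathways were counted next, in 5xFAD/D-45113 against 5xFAD/Veh mice. None of the 13 tested genes of the neurotrophin list, which holds other ligands, receptors, sortilins, processing enzymes and signalling adaptors, passed in either direction (median log2 fold change -0.06). None of 12 granin and secretory pathway genes (median 0.00) and none of 9 pentraxin and synaptic organiser genes (median -0.21) passed. In the activin list 1 of 13 passed: Acvr1c, an activin-type receptor gene, was lower (-0.84, SE 0.227, edgeR adjusted p = 0.0310), with 27.8 ± 11.3 CPM in 5xFAD/D-45113 and 49.9 ± 20.5 CPM in 5xFAD/Veh mice (SD, n = 8 each). It passed without 1M and 4F (-1.01, adjusted p = 0.0301) but not without 5xFAD/Veh mouse 3F (-0.67, adjusted p = 0.0860). Over all genes tested the median was 0.01.

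Of the immediate early genes, the fast transcriptional response to neuronal activity, 4 of 25 were lower and none was higher, with a list median of -0.60, where 1.75% of all genes were called lower. All 8 excitatory neuron markers had negative fold changes beside them (median -0.52). Egr1, a zinc finger transcription factor gene, fell to 107 ± 58.8 CPM in 5xFAD/D-45113 mice, against 238 ± 70.7 CPM in 5xFAD/Veh mice (log2 fold change -1.15, SE 0.250, edgeR adjusted p = 0.00971). Egr4, of the same family, was lower by a log2 fold change of -1.03 (adjusted p = 0.0148). Homer1, a postsynaptic scaffold gene with an activity-induced short form, was lower by -0.78 (adjusted p = 0.0186), and Dusp6, an ERK phosphatase gene, by -0.60 (adjusted p = 0.0257). None of the 25 passed without the libraries labelled 1M and 4F (median -0.38), where Egr1 had an adjusted p of 0.0532 and Dusp6 one of 0.115. Without 5xFAD/Veh mouse 3F 2 of 25 passed, Egr1 and Egr4, with Homer1 at -0.56 (adjusted p = 0.0594) and Dusp6 at -0.545 (adjusted p = 0.0596).

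In WT mice, D-45113 against vehicle called none of the 8 genes, where 0.0239% of all genes (4 of 16723, 1139 at an unadjusted p under 0.05) were called. DESeq2 called 26 genes and limma voom 0. Bdnf had a lowest of 15.7, a median of 26.8 and a highest of 40.2 CPM in WT/D-45113 mice, against a lowest of 5.30, a median of 15.5 and a highest of 24.3 CPM in WT/Veh mice. All 8 treated mice were above the vehicle median and 4 above the whole vehicle range, but the log2 fold change of 0.73 (SE 0.367, edgeR adjusted p = 0.748) did not pass. All 8 striatum and midbrain markers had negative fold changes in the same comparison (median -1.02, none called). Their sums were 131 to 1457.4 CPM in WT/D-45113 and 618 to 3286.5 CPM in WT/Veh mice, and their part was not tested. Ntf3 ran from 1.43 to 7.92 CPM (median 2.91) in WT/D-45113 mice and from 0.00 to 3.17 CPM (median 1.44) in WT/Veh mice, with 1.35 (SE 0.640, adjusted p = 0.715). WT/Veh mouse 1M had 0 counts of Ntf3, which allows up to 0.182 CPM (3 counts, for counting error only).

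Ntrk2 was 733 to 1061.8 CPM in WT/D-45113 and 554 to 970 CPM in WT/Veh mice, with a log2 fold change of 0.14 (SE 0.117). Inhba was 6.46 to 13.5 CPM in WT/D-45113 and 5.57 to 17.0 CPM in WT/Veh mice (-0.43, SE 0.350), and 7 of 8 treated mice were below the vehicle median. The remaining 4 genes, none of which passed, had log2 fold changes between -0.33 (Nptx2, SE 0.405) and -0.14 (Scg2, SE 0.148). Without WT/D-45113 mouse 2F, the highest of its group for Scg2, that gene was at -0.25 (adjusted p = 0.735).

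The difference between the treatment effects of the genotypes was tested as an interaction, which called none of the 8 and 0.00% of all genes (0 of 16723, with 1591 at an unadjusted p under 0.05, 14 by DESeq2 and 0 by limma voom). The largest interactions in absolute size were those of Ntf3 (-1.64, SE 0.898, edgeR adjusted p = 0.580) and Bdnf (-1.42, SE 0.518, adjusted p = 0.383). Bdnf had a log2 fold change of -0.68 in treated 5xFAD and 0.73 in treated WT mice, and neither of these nor their difference passed. Dentate granule cell markers and CA3 pyramidal cell markers had the same signs, with none called: all 6 and all 5 had negative fold changes in 5xFAD/D-45113 against 5xFAD/Veh mice, and all 6 and all 5 had positive ones in WT/D-45113 against WT/Veh mice. For Ntrk2 the interaction was 0.44 (SE 0.166, adjusted p = 0.394) and for Inhba -0.98 (SE 0.496, adjusted p = 0.542), so the effects called in 5xFAD mice were not shown to differ from those in WT mice. Without 5xFAD/Veh mouse 3F the interaction of Inhba was -0.28 (edgeR adjusted p = 0.884), so most of its size rested on that mouse. That of Ntrk2 was 0.45 (adjusted p = 0.425) and that of Bdnf -1.11 (adjusted p = 0.504).

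The effect of the transgenes without D-45113 was read from 5xFAD/Veh against WT/Veh mice. None of the 8 genes was called, against 3.86% of all genes (646 of 16723), and 3 of 8 had negative fold changes. Bdnf had a lowest of 12.1, a median of 21.9 and a highest of 63.9 CPM in 5xFAD/Veh mice and 5.30, 15.5 and 24.3 CPM in WT/Veh mice, with a log2 fold change of 0.79 (SE 0.366, edgeR adjusted p = 0.400), and of 0.48 without 5xFAD/Veh mouse 3F. Ntf3 gave 1.06 (SE 0.639) and Vgf -0.36 (SE 0.203). Less Vgf than in any WT/Veh mouse was found in 5 of 8 5xFAD/Veh mice. In males alone Vgf passed at -0.875 (adjusted p = 0.0256), with 141 to 230 CPM in 5xFAD/Veh males and 278 to 438 CPM in WT/Veh males, while in females it was 0.04 (adjusted p = 0.990). The difference between the sexes in this comparison was not tested. All 12 thalamus and all 12 choroid plexus markers had negative fold changes here (medians -0.88 and -1.72), with none called. With both scores as covariates none of the 8 genes was called either, against 4.11% of all genes. All 7 microglia markers (median 1.28) and all 5 reactive astrocyte markers (median 2.86) were higher in 5xFAD/Veh mice. Of 8 striatum and midbrain markers, 7 had negative fold changes (median -0.64, none called). The part of these 3 lists was not tested.

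Inhba (0.48, SE 0.346) and Nptx2 (0.54, SE 0.403) turned to -0.23 and -0.29 when 5xFAD/Veh mouse 3F was left out, so their direction in this comparison depended on that mouse. In the 5 pathway lists none of the genes passed in this comparison or in that of WT/D-45113 with WT/Veh mice, and the medians of the immediate early genes were 0.07 and 0.01. Scg2 was -0.01 (SE 0.148), Pcsk1 was -0.28 (SE 0.221) and Ntrk2 was 0.09 (SE 0.117). The values of Ntrk2 were 668 to 973 CPM in 5xFAD/Veh and 554 to 970 CPM in WT/Veh mice.

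Between treated mice, 5xFAD/D-45113 against WT/D-45113, 2 of 8 genes were called against 5.06% of all genes (847 of 16723). This comparison shares the 5xFAD/D-45113 mice with the first, so it is no independent view of them. Ntrk2 was higher, with a median of 1236.8 CPM (841 to 1555.1) in 5xFAD/D-45113 mice and of 813 CPM (733 to 1061.8) in WT/D-45113 mice. Of 8 5xFAD/D-45113 mice, 6 exceeded every WT/D-45113 mouse, and the log2 fold change was 0.53 (SE 0.117, edgeR adjusted p = 0.00403). It passed with each of the 16 mice left out (0.48 to 0.60), without 1M and 4F together (0.48, adjusted p = 0.0223) and after scores of thalamus and of choroid plexus markers were added as covariates (adjusted p = 0.0122). It was lost with the astrocyte score (0.36, adjusted p = 0.164), in females alone (0.61, adjusted p = 0.0719) and in males alone (0.45, adjusted p = 0.319), fits that called 1.93%, 1.19% and 1.22% of all genes.

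Vgf was lower, with a lowest of 98.1, a median of 163 and a highest of 259 CPM in 5xFAD/D-45113 mice and a lowest of 162, a median of 256 and a highest of 379 CPM in WT/D-45113 mice. Of 8 5xFAD/D-45113 mice, 4 were below every WT/D-45113 mouse. The log2 fold change of -0.67 (SE 0.204, edgeR adjusted p = 0.0483) was just past the threshold. It was lost with any 1 of 12 of the 16 mice left out (adjusted p up to 0.102), with the size between -0.81 and -0.57, and it passed in 7 of 16 other settings. Without 1M and 4F together it was -0.605 (adjusted p = 0.156), and with the excitatory neuron score as a covariate -0.61 (adjusted p = 0.198). With the astrocyte score it was -0.48 (adjusted p = 0.408), and with those of thalamus and choroid plexus -0.66 (adjusted p = 0.0795). The other 6 genes did not pass, with log2 fold changes of -0.625 for Bdnf (SE 0.367), -0.58 for Ntf3 (SE 0.632), -0.50 for Inhba (SE 0.355), 0.43 for Nptx2 (SE 0.406), 0.08 for Scg2 (SE 0.148) and 0.07 for Pcsk1 (SE 0.222).

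Pathway lists in the same comparison showed 5 of 25 immediate early genes lower and none higher (median -0.44, against 0.02 over all genes tested), where 1.35% of all genes were called lower. They were Egr1 (-1.265), Egr4 (-0.97), Homer1 (-0.73) and Dusp6 (-0.56), and Nr4a3 (-1.32), which is named after its value was seen. Without 1M and 4F 1 of 25 passed, Egr1 (-1.20, adjusted p = 0.0123), while Homer1 (adjusted p = 0.0537), Egr4 (adjusted p = 0.0734), Dusp6 (adjusted p = 0.138) and Nr4a3 (adjusted p = 0.158) did not. In the neurotrophin list 1 of 13 passed, Sort1, whose product sortilin binds proneurotrophins and sorts Bdnf, at 486 ± 117 CPM in 5xFAD/D-45113 and 665 ± 101 CPM in WT/D-45113 mice (SD over 8 mice, log2 fold change -0.45, SE 0.124, edgeR adjusted p = 0.0265). In the pentraxin and organiser list 1 of 9 passed, the secreted synaptic protein gene Lgi1 (-0.51, SE 0.152, adjusted p = 0.0451). Neither passed without 1M and 4F, at -0.35 for Sort1 (adjusted p = 0.142) and -0.40 for Lgi1 (adjusted p = 0.191). None of 12 granin and none of 13 activin genes did, although Acvr1c (-0.67, adjusted p = 0.0848) passed without 1M and 4F (-0.84, adjusted p = 0.0370).

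Neuronal markers were lower beside these genes in the same comparison. All 8 excitatory neuron (median -0.61), all 6 dentate granule cell (-0.71), all 5 CA3 (-0.52) and all 5 CA1 pyramidal cell markers (-0.25) had negative fold changes, with none called. Summed excitatory neuron markers ran from 3890.0 to 9320.3 CPM in 5xFAD/D-45113 and from 6615.0 to 11163.9 CPM in WT/D-45113 mice. Thalamus markers had positive fold changes in 11 of 12 (median 0.43) and choroid plexus markers in 12 of 12 (median 0.33), with none called, and their medians were 0.21 and -0.23 without 1M and 4F. All 5 reactive astrocyte markers (median 2.05) and 4 of 7 microglia markers (median 0.705 over the 7) were called higher, with or without these libraries. The part of these markers in the lower Vgf, Sort1, Lgi1 and immediate early genes was not tested beyond the covariate fits of Vgf.

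Sex was compared over the 4 groups with sex as an added term. None of the 8 genes was called between females and males, against 0.0478% of all genes (8 of 16723, 692 at an unadjusted p under 0.05, 14 by DESeq2 and 7 by limma voom). Vgf had the smallest unadjusted p of the 8 (0.00800, edgeR adjusted p = 1.00), with a log2 fold change of 0.37 (SE 0.131). It was higher on average in females than in males in 3 groups, at 182 against 136 CPM in 5xFAD/D-45113, 288 against 176 CPM in 5xFAD/Veh and 303 against 204 CPM in WT/D-45113 mice. In WT/Veh mice the means were 277 CPM in females and 321 CPM in males. Ntf3 had a log2 fold change of -0.96 (SE 0.426, edgeR unadjusted p = 0.0428, adjusted p = 1.00). Its means were 1.15 CPM in females and 4.10 CPM in males of the 5xFAD/D-45113 group, 1.12 and 5.38 CPM in those of 5xFAD/Veh, and 3.49 and 4.43 CPM in those of WT/D-45113. In WT/Veh mice the order was the other way, at 1.91 CPM in females and 1.19 CPM in males. All 6 dentate granule cell markers had negative fold changes in females against males (median -0.78, none called).

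Whether D-45113 acted alike in 5xFAD females and males was tested as a further interaction, which called none of the 8 and 0.00% of all genes (0 of 16723, 908 at an unadjusted p under 0.05, 0 by DESeq2 and 0 by limma voom). Pcsk1 had the smallest unadjusted p of the 8 (0.00853, edgeR adjusted p = 0.909, log2 difference -1.16, SE 0.410). In males its levels did not overlap, at 28.7, 29.1, 30.2 and 38.3 CPM in 5xFAD/D-45113 and 15.3, 16.1, 20.9 and 23.7 CPM in 5xFAD/Veh mice. In females they overlapped, at 16.5, 18.7, 22.3 and 24.7 CPM in 5xFAD/D-45113 and 14.5, 25.1, 31.3 and 39.2 CPM in 5xFAD/Veh mice. The highest of these vehicle females is mouse 3F. Pcsk1 was picked here for its small p, and how many of all genes separate these males in the same way was not counted. The fit of males alone called 0 of 16697 genes for 5xFAD/D-45113 against 5xFAD/Veh. In that comparison Pcsk1 was called in 0 of 16 other settings. For Inhba the difference between the sexes was -1.27 (SE 0.645, adjusted p = 0.909), with mouse 3F (60.7 CPM) among the vehicle females.

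**Figure D3:**
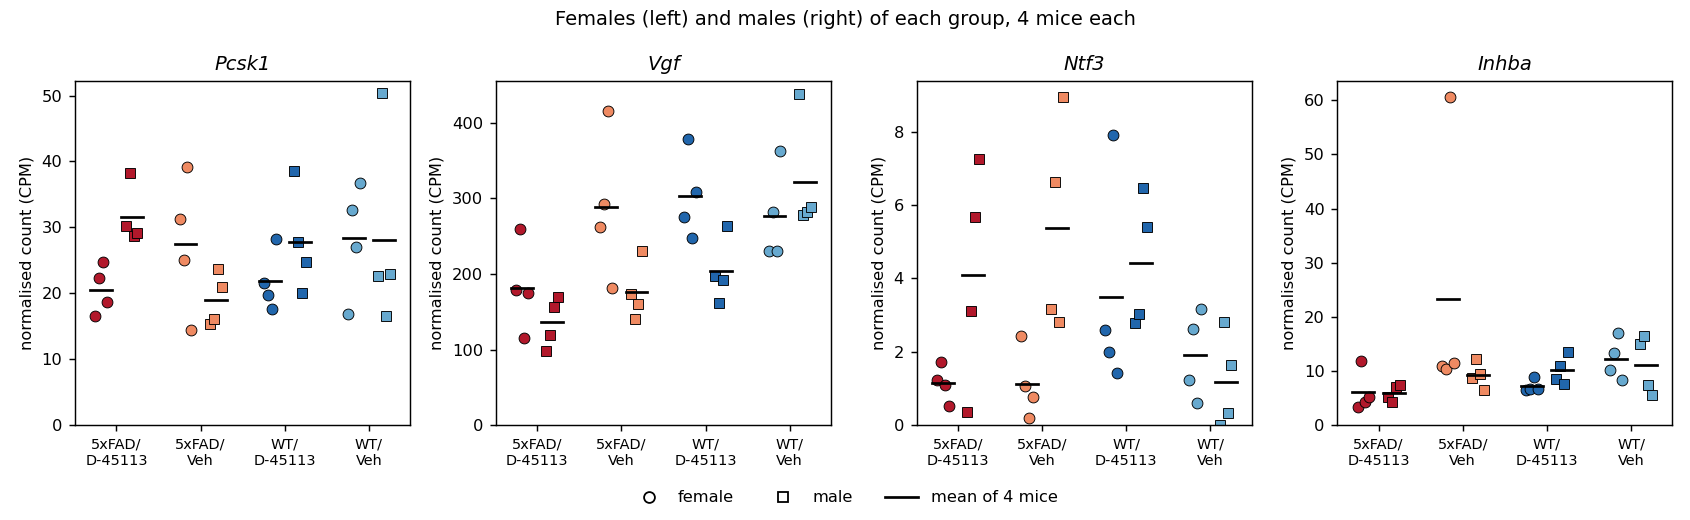
CPM (y axis, linear from 0) of Pcsk1, Vgf, Ntf3 and Inhba in the 4 females (circles, left) and 4 males (squares, right) of each group on the x axis, with lines at the means. Pcsk1 of 5xFAD males is 28.7 to 38.3 CPM under D-45113 and 15.3 to 23.7 CPM under vehicle. In 5xFAD females it is 16.5 to 24.7 CPM under D-45113 and 14.5 to 39.2 CPM under vehicle. The highest Inhba (60.7 CPM) belongs to a 5xFAD/Veh female.

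Variation among mice of the same group shows which of the 8 genes go together. Correlations were taken on log2 CPM centred on the 4 group means over 32 mice, for 28 pairs, and are given as descriptions, since all values of a mouse share 1 library. The highest was that of Nptx2 and Inhba (r = 0.686, Spearman rho = 0.283), which was 0.249 without 5xFAD/Veh mouse 3F and 5xFAD/D-45113 mouse 2F and so rested on those mice. Nptx2 and Vgf gave r = 0.615, and 0.362 without the same mice. Nptx2 and Scg2 gave 0.588, and 0.497 without them. Bdnf and Inhba gave 0.462, and 0.312 without 5xFAD/Veh mouse 3F, which had the highest level of both. Bdnf and Ntf3, the 2 ligands, had r = 0.504 (rho = 0.606), and 0.755 (rho = 0.810) without 5xFAD/Veh mouse 3F. Both also varied with the same marker scores, given below, and the part of these in the r of the pair was not tested. Bdnf and the receptor gene Ntrk2 had r = -0.144, and Vgf and the convertase gene Pcsk1 had r = 0.123.

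**Figure D4:**
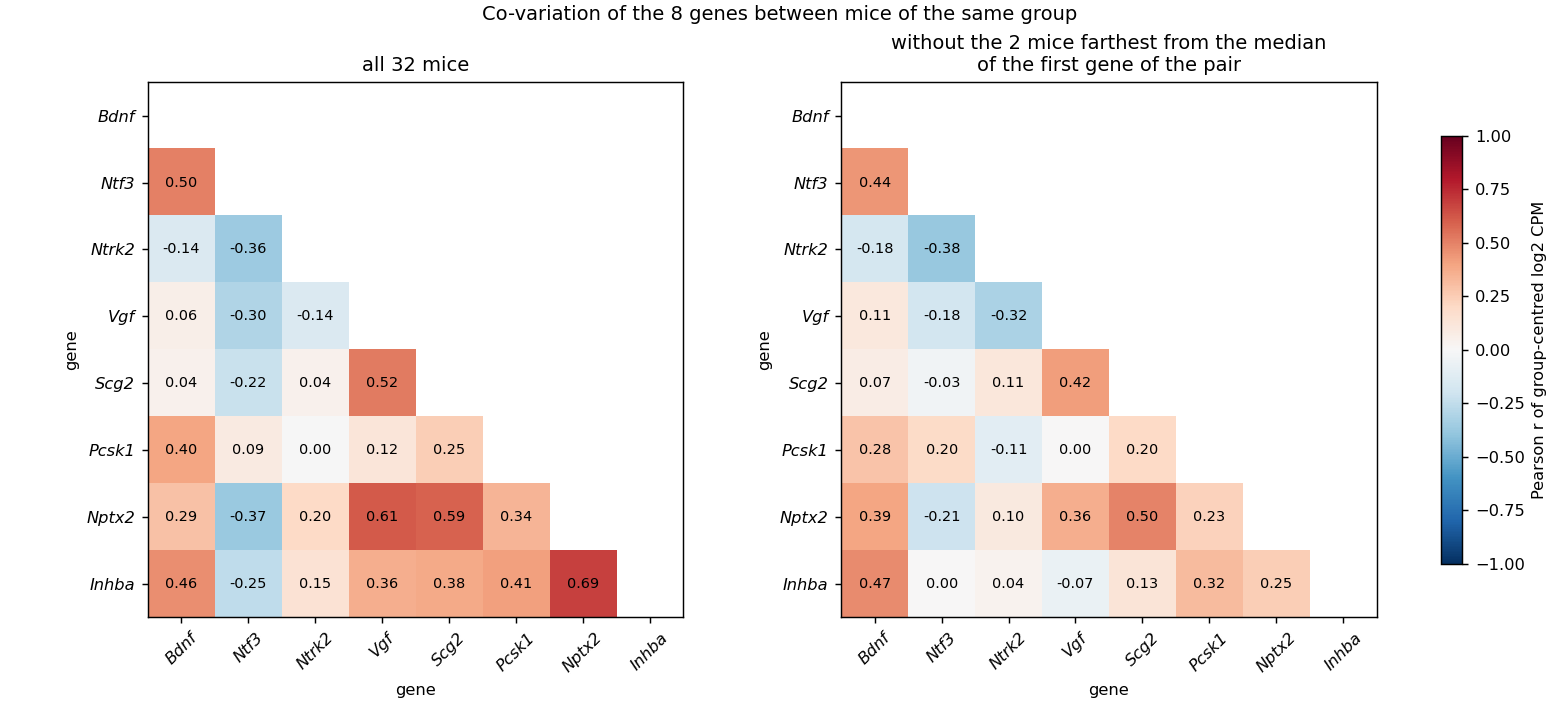
Pearson r of group-centred log2 CPM for the 28 pairs of genes, for all 32 mice (left) and without the 2 mice farthest from the median of 1 gene of the pair (right), on a colour scale from -1 to 1. The cell of Nptx2 and Inhba holds 0.69 on the left and 0.25 on the right, and that of Bdnf and Ntf3 holds 0.50 and 0.44.

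The genes that varied most like each of the 8, among 14666 others with a mean of at least 1 CPM, differed between members. For Bdnf they were Ptgs2 (r = 0.894), which encodes cyclooxygenase-2, Enc1 (0.878) and Gpr22 (0.867). For Ntf3 they included Mycl (0.882) and Bhlhe22 (0.863). Vgf went with Ptprn (0.811), which encodes a protein of dense-core vesicle membranes, with Eif3b (0.807) and with Prrt3 (0.774). Inhba went with Dusp14 (0.835), Homer1 (0.754) and Kcnh1 (0.725), and Nptx2 with Coro1c (0.776), Slc6a17 (0.727) and Prss23 (0.725). Spearman rho of Nptx2 with the last pair was 0.386 and 0.408, lower than its r, and without 5xFAD/Veh mouse 3F r was 0.450 and 0.502. Without that mouse Inhba had 0.706 with Dusp14, 0.622 with Homer1 and 0.602 with Kcnh1. Scg2 had its closest genes at r of 0.710 (Ddx1), 0.690 (Yars) and 0.681 (Pi4k2a). Pcsk1 was closest to St6gal2 (0.761), Mef2c (0.759) and Elavl4 (0.759), and Ntrk2 to Efcab2 (0.806), Abca1 (0.800) and Ndst1 (0.796).

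Marker scores varied with some of the 8 genes in the same within-group sense. Ntf3 followed the dentate granule cell score (r = 0.831) and Bdnf the scores of excitatory neurons (0.730) and CA3 pyramidal cells (0.683). Bdnf had 0.452 with the dentate granule cell score, and 0.683 without 5xFAD/Veh mouse 3F. Ntf3 had 0.405 with the excitatory neuron score and 0.622 with that of CA3 pyramidal cells. Both were negative with the striatum and midbrain score (-0.634 for Bdnf and -0.527 for Ntf3, and -0.723 and -0.533 without mouse 3F). With the pentraxin and synaptic organiser list Bdnf had 0.767 and Ntf3 0.770. Ntrk2 had r = 0.460 with the astrocyte score and -0.0152 with the excitatory neuron score. Inhba had r = 0.485 with the interneuron score and 0.463 with that of immediate early genes. Vgf had r = 0.524 with the score of granin and secretory pathway genes, 0.440 with that of immediate early genes and 0.437 with that of interneurons. Both had negative values with the dentate granule cell score (-0.320 for Inhba and -0.409 for Vgf). Without 5xFAD/Veh mouse 3F these became -0.0815 for Inhba and -0.292 for Vgf, and their values with the interneuron score 0.336 and 0.327, while Ntf3 kept 0.801 with the dentate granule cell score and Ntrk2 0.459 with the astrocyte score. Dentate granule cell markers themselves spread from 89.4 to 340 CPM in sum in 5xFAD/D-45113, 66.5 to 442 CPM in 5xFAD/Veh, 65.6 to 503 CPM in WT/D-45113 and 57.5 to 310 CPM in WT/Veh mice. The part of these marker levels in the spread of Ntf3 and Bdnf was not tested.

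**Figure D5:**
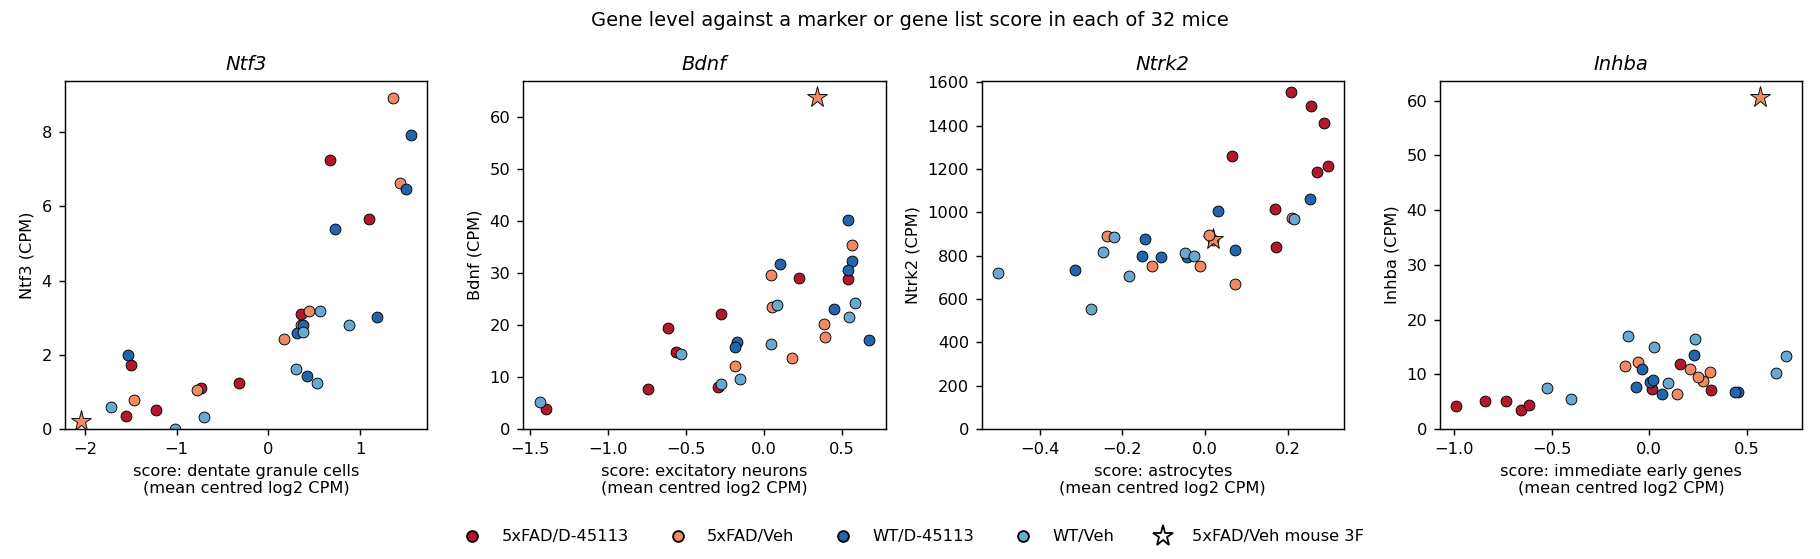
CPM (y axes, linear from 0) of Ntf3, Bdnf, Ntrk2 and Inhba in each of 32 mice against the mean centred log2 CPM of a marker or gene list (x axes), coloured by group, with a star for 5xFAD/Veh mouse 3F. Ntf3 climbs along the dentate granule cell score, where the star has the lowest score (-2.04), and Inhba of the star (60.7 CPM) lies far above the other mice.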

How the data were processed

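Hippocampal RNA was isolated with a Qiagen kit, and libraries, sequencing and read mapping to mm10 were done by a commercial provider. For the aligner, counter, strand setting and annotation release, no name is given in the sources used here. Deposited by the authors were raw counts per gene, a gene length and FPKM values, which the authors scaled by that length and by library depth. The 32 columns were matched to mice by description, and no column was left over. Genes were kept by edgeR's filterByExpr (16723 of 54532), scaled by TMM and fitted as 4 group means over 32 mice with the quasi-likelihood test (edgeR 4.0.16, limma 3.58.1, R 4.3.3), with p-values adjusted over all genes tested and called under 0.05. Log2 CPM used a prior count of 2. Alternatives were RLE factors, DESeq2 1.42.0, limma voom, limma on log2(FPKM + 1) or log2(FPKM + 0.1), no filter, covariates for sex or marker scores, a replicate block, subsets of mice and each mouse left out. The astrocyte and excitatory neuron scores as covariates, the fits of list genes without 1M and 4F or without 5xFAD/Veh mouse 3F and the correlations without 3F alone were added after the data were seen. The procedure was tested on simulated data. Members and gene lists were chosen with earlier results of these data known. Named besides the members were up to 4 called genes a list in a comparison, Nr4a3 beyond these and, for each member, the 3 genes of highest r, of which 1 is not reported here. Values of B230303A05Rik were looked up afterwards. Pairs of mice in a group differed by at least 15.0 in chi-square per degree of freedom, so none was a repeat library. Each mouse is taken as 1 replicate. Figures were drawn with matplotlib.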

Additional observations from a re-analysis of the deposited data

Results flagged for a closer look

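In 6 cases a mouse stood apart from the other 7 of its group: its gap to the nearest mouse, over the range of the group, was beyond Dixon's critical value for 8 at the 95% level. They come from 32 sets of 8 mice (8 genes in 4 groups). Chance would give about 1 in 20 of such sets if they were independent and normally distributed. Here the sets share the same mice and linear CPM was used, so that rate need not hold. 5xFAD/Veh mouse 3F was the high one for Bdnf (63.9 CPM, next 35.3 CPM), Nptx2 (240 CPM, next 57.5 CPM) and Inhba (60.7 CPM, next 12.3 CPM). 5xFAD/D-45113 mouse 2F was the high one for Nptx2 (108 CPM, next 52.4 CPM) and Inhba (11.9 CPM, next 7.39 CPM). WT/D-45113 mouse 2F was the high one for Scg2 (225 CPM, next 158 CPM). All 3 are females. The fits without 5xFAD/Veh mouse 3F are given above for all 3 genes. Without 5xFAD/D-45113 mouse 2F, Inhba was -1.63 (log2 fold change, edgeR adjusted p = 0.00938) and Nptx2 -0.79 (adjusted p = 0.262) against 5xFAD/Veh mice, and -0.72 (adjusted p = 0.292) and 0.08 (adjusted p = 0.951) against WT/D-45113 mice. Without WT/D-45113 mouse 2F, Scg2 was -0.25 (adjusted p = 0.735) in WT/D-45113 against WT/Veh and 0.19 (adjusted p = 0.487) in 5xFAD/D-45113 against WT/D-45113 mice. The cause of their high levels was not tested.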

How the results depend on the processing

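Of the log2 fold changes of the 8 genes under other settings, 521 kept their direction and side of the threshold, 35 changed sign, 27 lost a call and 1 gained one. With 1 mouse left out, 740 kept both, 14 changed sign, 13 lost a call and 1 gained one. The cause was not tested for any change below. In 5xFAD/D-45113 against 5xFAD/Veh mice, where 2 genes were called and 3.96% of all, 1 was called without the filter (1.14% of all genes in that fit), without treated mice 1M and 4F (1.10%), with limma voom (4.65%), in the compared groups alone (3.15%), in females (0.668%), on log2(FPKM + 1) with and without the filter (3.56% and 1.09%) and with the excitatory neuron score (0.688%), and 0 in males (0.00%), with the astrocyte score (0.568%) and with those of thalamus and choroid plexus (0.0538%). In 5xFAD/D-45113 against WT/D-45113 mice, also with 2 and with 5.06% of all, 1 was called without the filter (1.83%), with the thalamus and choroid plexus scores (3.41%), without 1M and 4F (3.16%), in the compared groups alone (3.25%), on log2(FPKM + 1) without the filter (1.82%) and with the excitatory neuron score (2.48%), and 0 in females (1.19%), in males (1.22%) and with the astrocyte score (1.93%). In 5xFAD/Veh against WT/Veh mice 1 was called in males, against 2.86% of all genes there, and 0 otherwise, against 1.82% to 4.46%. With a mouse left out the counts were 1 to 3 in the first and 1 to 2 in the second of these comparisons.

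Mice of 1 number in different groups also share their sex, and no other link between them is given. Their correlations ran from -0.234 to 0.282, with a median of 0.0491 against -0.00909 for other pairs between groups. Of 32 mice, 8 correlated best with a mouse of their own number, and whether the numbers mark a pairing was not tested. With the replicate block 1 gene was called in 5xFAD/D-45113 against 5xFAD/Veh mice (Inhba -1.13, adjusted p = 0.0527), and other counts did not change. Sex could not be fitted with the replicate block, since the numbers hold it.

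Signs turned for genes that were not called. In 5xFAD/D-45113 against 5xFAD/Veh mice, Nptx2 was 0.383 with DESeq2 and 0.183 in males, Scg2 was 0.0285 without 1M and 4F, 0.0952 in males and 0.0997 with the astrocyte score, Pcsk1 was -0.407 in females, and Ntf3 was 0.0448 without 1M and 4F, 0.104 in females and 0.336 with the excitatory neuron score. With a mouse left out, Nptx2 ran from -0.793 to 0.391, Scg2 from -0.105 to 0.0581 and Ntf3 from -0.704 to 0.128. In WT/D-45113 against WT/Veh females, Vgf was 0.127 and Scg2 0.142. In 5xFAD/Veh against WT/Veh mice, Vgf was 0.0441, Scg2 0.295 and Ntf3 -0.801 in females, Nptx2 -0.764 and Inhba -0.266 in males, Nptx2 -0.301 with DESeq2 and Scg2 0.0311 with the thalamus and choroid plexus scores. With a mouse left out, Nptx2 ran from -0.294 to 0.721, Inhba from -0.228 to 0.602 and Scg2 from -0.117 to 0.0576. In 5xFAD/D-45113 against WT/D-45113 mice, Bdnf was 0.0520 and Ntf3 0.0941 with the excitatory neuron score, and Scg2 -0.00244 and Pcsk1 -0.0867 in females; Pcsk1 ran from -0.0466 to 0.191 with a mouse left out. In the genotype by treatment interaction, Nptx2 was 0.00748 without 1M and 4F, 0.723 with DESeq2, 0.187 with limma voom, 0.00532 with sex, 0.0975 with the replicate block, 0.777 in males, 0.174 on log2(FPKM + 1) with or without the filter and 0.191 on log2(FPKM + 0.1), and -0.460 to 0.724 with a mouse left out. There Vgf was 0.294 in males, Scg2 -0.00778 with the thalamus and choroid plexus scores and -0.297 in females, and Pcsk1 -0.0271 in females. Without the 2 mice farthest from the median, r of Vgf and Inhba was -0.0673 and that of Nptx2 and Inhba 0.249.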
